A study of Mus musculus with 9 samples.

Results

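The renin-angiotensin genes described here are Agt, Ace, Enpep, Agtr1a, Agtr2 and Atp6ap2, taken by their symbols from the table of gene counts. All 6 were among the 24421 genes of the table, and 5 of them passed the filter on low counts that left 13901 genes for the test. The counts come from 9 tumors that bEnd.3 cells formed in athymic Nu/Nu nude male mice, 5 from mice given R-propranolol and 4 from mice given vehicle, with 1 library for each tumor. The bEnd.3 line consists of mouse endothelial cells that express the middle T antigen of polyomavirus, which transforms them, and serves as a model of hemangioma. R-propranolol is the enantiomer of propranolol that is a weak beta blocker, and vehicle was ethanol in DPBS. Both were injected intraperitoneally. The comparison asks which transcripts differ in tumors after R-propranolol. All tumors carried the same transformed line, and the nude host lacks mature T cells but keeps its own vessels, stroma and other immune cells. A tumor library holds the RNA of both, so that for every gene fewer cells of a type and less RNA per cell cannot be told apart.

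In the renin-angiotensin system, angiotensinogen is cut by renin to angiotensin I, and angiotensin-converting enzyme then makes angiotensin II, the peptide that constricts vessels through the type 1 receptor. Aminopeptidase A trims angiotensin II to angiotensin III, and the type 2 receptor often opposes the type 1 receptor. The (pro)renin receptor, Atp6ap2, binds renin and prorenin and is also an accessory subunit of the vacuolar proton pump (V-ATPase). Endothelium is known for angiotensin-converting enzyme on its surface, whereas liver is the main source of circulating angiotensinogen.

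Total counts over genes were 21084749 to 27852630 in R-propranolol tumors and 20599904 to 24949010 in vehicle tumors. R-propranolol replicate 5 stood apart. Its log2 CPM (CPM, a gene's count relative to the TMM-scaled library size) correlated across genes with the other tumors' at r of 0.678 to 0.790, against 0.897 to 0.988 among the other 8. The summed level of 10 skeletal muscle markers was 171461 CPM in this tumor and 3.74 to 392 CPM in the others. The members' log2 fold changes are therefore given with and without it. The titles of vehicle replicates 1 and 2 share a number that differs in all other tumors and whose meaning is not stated, and each was counted as a tumor of its own. The 12 endothelial markers summed to 504 to 1047 CPM in R-propranolol tumors and 484 to 621 CPM in vehicle tumors, and none of the 12 was at 0 in any tumor.

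The sequences just upstream of the start sites are shown for 2 pairs of members, picked after their levels, described below, were seen. Agt and Enpep were both highest in R-propranolol replicate 5, and Ace and Atp6ap2 were abundant in every tumor. The first pair rests on that 1 tumor, since Agt and Enpep had r = 0.85 over 9 tumors but 0.40 without it. No link between these sequences and the levels was tested. The RefSeq table of start sites (GRCm38.p6) held 5 of the 6 members and had no entry for Agtr1a. The 250 bases that end just before the first listed start are given 5′ to 3′ on the strand of the gene. They lie at chr8:124569707-124569956 (minus strand) for Agt, chr3:129332750-129332999 (minus) for Enpep, chr11:105967698-105967947 (plus) for Ace and chrX:12587509-12587758 (plus) for Atp6ap2. Capitals mark TATAAA (the core of a TATA box) and GGGCGG (a GC box, the motif of Sp1) on either strand, read as TTTATA and CCGCCC on the other strand.
Agt: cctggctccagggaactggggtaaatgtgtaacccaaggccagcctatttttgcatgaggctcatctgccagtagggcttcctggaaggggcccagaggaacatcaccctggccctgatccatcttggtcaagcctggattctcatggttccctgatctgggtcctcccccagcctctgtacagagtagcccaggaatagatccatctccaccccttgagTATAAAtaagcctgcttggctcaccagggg
Enpep: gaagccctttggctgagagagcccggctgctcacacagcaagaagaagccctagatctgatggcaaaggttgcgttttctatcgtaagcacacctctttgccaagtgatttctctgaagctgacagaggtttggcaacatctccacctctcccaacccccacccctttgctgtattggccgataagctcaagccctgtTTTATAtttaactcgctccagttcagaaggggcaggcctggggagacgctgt
Ace: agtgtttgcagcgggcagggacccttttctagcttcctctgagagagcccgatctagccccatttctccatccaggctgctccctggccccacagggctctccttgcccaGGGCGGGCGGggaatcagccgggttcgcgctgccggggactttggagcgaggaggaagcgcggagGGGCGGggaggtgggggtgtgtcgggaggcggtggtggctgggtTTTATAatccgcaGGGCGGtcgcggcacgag
Atp6ap2: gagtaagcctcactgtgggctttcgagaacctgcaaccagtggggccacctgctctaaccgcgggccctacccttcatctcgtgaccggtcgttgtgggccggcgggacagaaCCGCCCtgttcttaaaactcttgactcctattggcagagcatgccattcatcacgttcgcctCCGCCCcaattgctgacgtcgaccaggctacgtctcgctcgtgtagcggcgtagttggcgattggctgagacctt
Agt had TATAAA 30 bases before its start and not 1 CG dinucleotide in the window. Enpep had TATAAA on the opposite strand 52 bases before its start and 6 CG dinucleotides. Both lacked GGGCGG. Ace had TATAAA on the opposite strand 31 bases before its start, 19 CG dinucleotides, and GGGCGG in 4 places, 2 of which overlap. Atp6ap2 had no TATAAA, 20 CG dinucleotides and GGGCGG in 2 places on the opposite strand. Over 32851 such windows, 12.4% held TATAAA and 32.7% held GGGCGG on either strand, and the median number of CG dinucleotides was 6. These matches describe the letters only.

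Across all tumors, no renin-angiotensin gene differed between R-propranolol and vehicle in edgeR's quasi-likelihood test at an adjusted p of 0.05. None of the 13901 genes tested did (0%), and the smallest adjusted p over all genes was 0.876. An unadjusted p under 0.05 was reached by 0 of the 5 tested members, against 320 of all genes tested (2.3%), of which 280 were higher and 40 lower with R-propranolol. Without R-propranolol replicate 5, 364 were higher and 155 lower. The groups did not overlap for 0 of the 5 members, against 175 of all genes (1.26%). The median log2 fold change over all genes tested was 0.03. DESeq2's Wald test called 2 genes of the whole table at an adjusted p of 0.05, and gave Agt no p. Over the other settings tried, the lowest adjusted p of a member was 0.660. Some members passed an unadjusted p of 0.05 there: Agt with R-propranolol replicate 2, 3 or 4 left out in edgeR, Atp6ap2 with R-propranolol replicate 3 left out in edgeR, and Enpep in DESeq2.

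**Figure D1:**
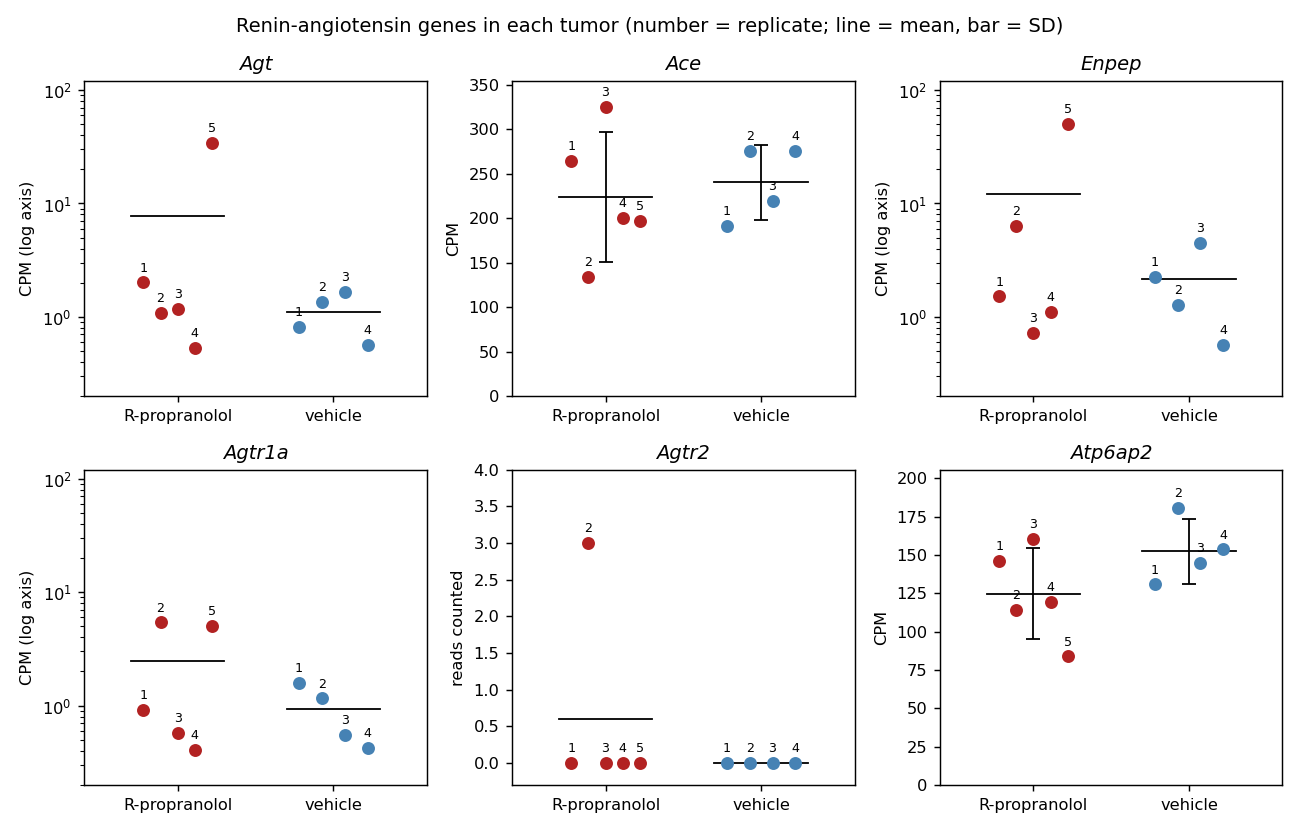
Level of each renin-angiotensin gene in every tumor, R-propranolol on the left and vehicle on the right, with replicate numbers beside the points. Levels are in CPM on a log axis for Agt, Enpep and Agtr1a, in CPM from 0 for Ace and Atp6ap2, and in reads for Agtr2; lines are means and the bars, drawn for Ace and Atp6ap2, SD (n = 5 and 4). R-propranolol replicate 5 lies far above the rest for Agt and Enpep, at 34.0 and 50.5 CPM.

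Agt, at chr8:124556534-124569706 on the minus strand (GRCm38), encodes angiotensinogen, the only substrate of renin. Its level was 2.01, 1.08, 1.19, 0.533 and 34.0 CPM in R-propranolol replicates 1 to 5, against 0.818, 1.35, 1.67 and 0.570 CPM in vehicle replicates 1 to 4. One R-propranolol tumor was thus far above all others, and the remaining 4 were spread over the range of the vehicle tumors and slightly beyond it at both ends. The reads behind these levels numbered 512 in R-propranolol replicate 5 and 12 to 57 in the other 8 tumors. The mean was 7.77 ± 14.7 CPM with R-propranolol and 1.10 ± 0.498 CPM with vehicle (SD, n = 5 and 4). The log2 fold change was 2.80 (SE 1.33, 95% interval -0.20 to 5.81, edgeR adjusted p = 0.876). Replicate 5 held 87.6% of the summed Agt level of the R-propranolol tumors. Without it the log2 fold change was 0.12 (SE 0.47, interval -0.94 to 1.19), from a mean of 1.20 ± 0.610 CPM in the 4 remaining R-propranolol tumors.

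Agt is known as a product of hepatocytes and adipocytes, so their markers are given beside it. The 10 hepatocyte markers, albumin (Alb) among them, summed to 380 CPM in R-propranolol replicate 5 and 53.8 to 181 CPM in the other R-propranolol tumors, against 19.6 to 73.1 CPM in vehicle tumors. Most of the sum in replicate 5 was transferrin (Trf, 332 CPM). Trf was also a large part of the sum in other tumors, at 17.1 to 69.1 CPM in vehicle tumors. It had more reads than Alb in every tumor except R-propranolol replicate 3. Alb itself was at 20.7 CPM in replicate 5, which lies within the 12.9 to 54.8 CPM of the other R-propranolol tumors. Its level was 22.7 CPM in vehicle replicate 2 and 0.595 to 1.42 CPM in the other vehicle tumors. The 10 adipocyte markers summed to 5287 CPM in replicate 5 and 124 to 237 CPM in the other R-propranolol tumors, against 162 to 450 CPM in vehicle tumors. Adiponectin (Adipoq) was at 403 CPM in replicate 5 and at 0.251 to 23.4 CPM in the other 8 tumors. The part of these cells in the Agt level was not tested.

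Ace, at chr11:105967945-105989964 on the plus strand, encodes angiotensin-converting enzyme. Its level was 264, 134, 325, 201 and 197 CPM in R-propranolol replicates 1 to 5, against 192, 276, 220 and 276 CPM in vehicle replicates 1 to 4. R-propranolol tumors held both the highest and the lowest of the 9 levels, in replicates 3 and 2, and the groups overlapped. The mean was 224 ± 72.8 CPM with R-propranolol and 241 ± 42.2 CPM with vehicle, from 2967 to 9042 reads a tumor. The log2 fold change was -0.10 (SE 0.25, interval -0.67 to 0.46, edgeR adjusted p = 0.901), and -0.06 without R-propranolol replicate 5. Its sign turned when R-propranolol replicate 2 was left out, which gave 0.04. The interval leaves room for differences of up to 0.67 on the log2 scale in one direction and 0.46 in the other. Exons of Ace share 295 bases with the antisense gene Gm11651, whose counts were 0 to 2 in each tumor.

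Enpep, at chr3:129269175-129332720 on the minus strand, encodes aminopeptidase A, a membrane enzyme of kidney, vessel-associated and other cells. Its level was 1.52, 6.32, 0.719, 1.11 and 50.5 CPM in R-propranolol replicates 1 to 5, against 2.24, 1.27, 4.48 and 0.570 CPM in vehicle replicates 1 to 4. R-propranolol replicate 5 was again the highest and replicate 2 the next, and both lay above every vehicle tumor, while the remaining 3 lay among the vehicle tumors. The mean was 12.0 ± 21.6 CPM with R-propranolol and 2.14 ± 1.71 CPM with vehicle. The log2 fold change was 2.48 (SE 1.37, interval -0.63 to 5.59, edgeR adjusted p = 0.876). Without R-propranolol replicate 5, which held 83.9% of the summed level of its group, it was 0.16 (SE 0.80, interval -1.67 to 1.99).

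Because Enpep is known in pericytes, mural markers are given beside it. The 12 mural markers (pericytes and smooth muscle) summed to 9249 CPM in R-propranolol replicate 5, 549 CPM in replicate 2 and 153 to 172 CPM in the other R-propranolol tumors, against 138 to 240 CPM in vehicle tumors. Most of the sum in replicate 5 was desmin (Des, 8693 CPM), which skeletal muscle also makes. Rgs5, a pericyte marker, was at 83.7 CPM in replicate 5 and 67.8 CPM in replicate 2 and 7.29 to 10.6 CPM in the other R-propranolol tumors, against 8.26 to 16.4 CPM in vehicle tumors. Both tumors high in Enpep were thus high in Rgs5. Pdgfrb, another mural marker, was at 155 CPM in replicate 2 but at 50.9 CPM in replicate 5, the lowest of all tumors. On the log2 scale, the Pearson r of Enpep with the mural sum was 0.92 over 9 tumors and 0.80 without replicate 5. It was 0.83 and 0.89 for macrophage, 0.74 and 0.92 for mast cell and 0.91 and 0.70 for adipocyte markers. The part of mural or other cells in the Enpep level was not tested.

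Agtr1a, at chr13:30336441-30382867 on the plus strand, encodes the main type 1 angiotensin II receptor of the mouse. Its level was 0.918, 5.40, 0.575, 0.410 and 5.05 CPM in R-propranolol replicates 1 to 5, against 1.59, 1.16, 0.556 and 0.427 CPM in vehicle replicates 1 to 4. Replicates 2 and 5 were above all vehicle tumors, and the other 3 R-propranolol tumors lay among or just below the vehicle tumors. The reads were few, 135 and 76 in R-propranolol replicates 2 and 5 and 9 to 37 in the other 7 tumors. The mean was 2.47 ± 2.53 CPM with R-propranolol and 0.933 ± 0.542 CPM with vehicle. The log2 fold change was 1.39 (SE 0.88, interval -0.60 to 3.39, edgeR adjusted p = 0.876). It was 0.95 without R-propranolol replicate 5 and 0.88 without replicate 2. The summed level of the 10 fibroblast markers, mostly collagens, was also highest in these tumors, with 32984 CPM in replicate 2 and 17009 CPM in replicate 5, against 6872 to 8338 CPM in the other R-propranolol tumors and 7339 to 10463 CPM in vehicle tumors. Not every marker followed the sum, as Pdgfra (216 CPM) and Col6a3 (849 CPM) were at their lowest of the 9 tumors in replicate 5. The summed endothelial, mural, macrophage and hepatocyte markers were also highest in replicates 2 and 5, whereas the adipocyte, skeletal muscle and mast cell sums were not. Over 9 tumors, the r of Agtr1a on the log2 scale was 0.83 with fibroblast, 0.80 with hepatocyte and 0.77 with macrophage markers. It was 0.75 with endothelial and 0.74 with mural markers. The part of fibroblasts or other cells in the Agtr1a level was not tested.

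Agtr2, at chrX:21484544-21489164 on the plus strand, encodes the type 2 receptor, which is best known from fetal tissues. It had 3 reads in R-propranolol replicate 2 and 0 reads in each of the other 8 tumors, and it was not tested. A level of 3 reads equals 0.106 to 0.199 CPM in R-propranolol tumors and 0.116 to 0.142 CPM in vehicle tumors, so that Agtr2 was not detectable above these levels. These limits cover counting error only.

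Atp6ap2, at chrX:12587801-12617049 on the plus strand, encodes the (pro)renin receptor. Its level was 146, 114, 160, 119 and 83.9 CPM in R-propranolol replicates 1 to 5, against 131, 181, 145 and 154 CPM in vehicle replicates 1 to 4. R-propranolol replicates 2, 4 and 5 lay below the lowest vehicle tumor, and replicates 1 and 3 lay inside the vehicle range. The mean was 125 ± 29.7 CPM with R-propranolol and 152 ± 21.1 CPM with vehicle, from 1261 to 4690 reads a tumor. The log2 fold change was -0.29 (SE 0.19, interval -0.72 to 0.14, edgeR adjusted p = 0.876), and -0.18 (SE 0.14, interval -0.49 to 0.14) without R-propranolol replicate 5. It stayed negative in all 17 other settings, between -0.39 and -0.17.

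Exact permutation of the group labels over all 126 regroupings of the 9 tumors, two-sided on mean log2 CPM, gave p = 0.540 for Agt, p = 0.627 for Ace and p = 0.556 for Enpep. The same exact permutation test gave p = 0.413 for Agtr1a and p = 0.159 for Atp6ap2. The smallest p that these regroupings allow is 0.00794. In edgeR the unadjusted p was 0.0639 for Agt, 0.104 for Enpep and 0.148 for Agtr1a, below their exact permutation p. For Ace and Atp6ap2 the unadjusted edgeR p was 0.688 and 0.161, slightly above their exact permutation p.

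**Figure D2:**
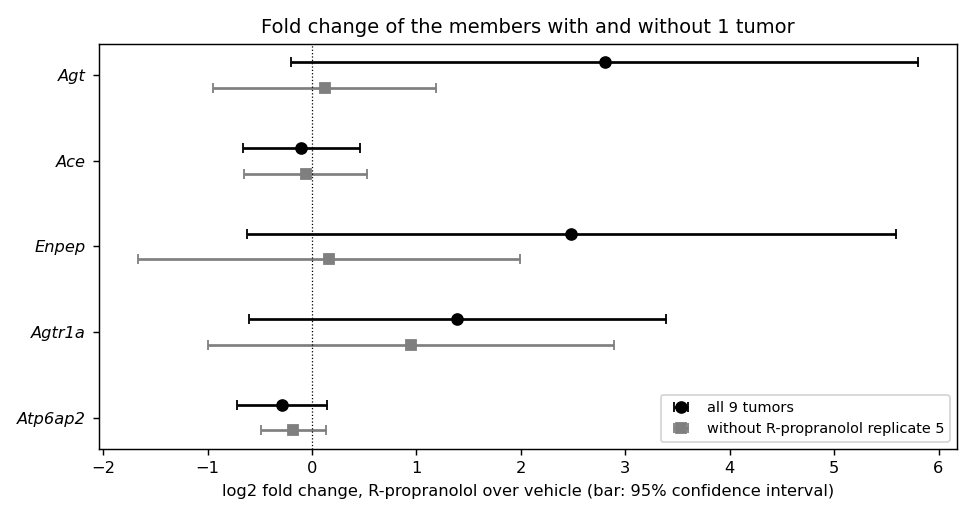
Log2 fold change of the 5 tested renin-angiotensin genes, R-propranolol over vehicle, with all 9 tumors (black circles) and without R-propranolol replicate 5 (grey squares); bars are 95% confidence intervals. Every interval includes 0, and the values for Agt and Enpep move to 0.12 and 0.16 without that tumor.

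Per length of exon, the members spanned a wide range of levels, and the order was the same in both groups at its top. On the scale of CPM per kilobase, Atp6ap2 had a median of 45.5 in R-propranolol tumors and 56.9 in vehicle tumors. Ace followed with 37.9 in R-propranolol tumors and 46.8 in vehicle tumors. Among 13380 tested genes with a known exon length, their mean levels ranked 861 and 1104. Atp6ap2 was above Ace in 7 of 9 tumors, and their ranges overlapped in both groups. Agt had a median of 0.627 with R-propranolol and 0.573 with vehicle, Agtr1a 0.329 with R-propranolol and 0.307 with vehicle, and Enpep 0.322 with R-propranolol and 0.373 with vehicle. These 3 neighbours did not differ beyond their spread, since Agt exceeded Enpep in 6 of 9 tumors and Enpep exceeded Agtr1a in 3 of 9. Ace exceeded Agt in 9 of 9 tumors. The gap was narrowest in R-propranolol replicate 5, where Agt was at 18.0, Ace at 37.3 and Atp6ap2 at 32.0 CPM per kilobase.

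Across tumors, the members did not vary as 1 group. Pearson r of log2 CPM is given here as a description over 9 tumors, which share the scaling of their libraries. Agt and Enpep had r = 0.85, which was 0.40 over the 8 tumors without R-propranolol replicate 5. Ace and Atp6ap2 had r = 0.68 over 9 tumors and 0.86 over those 8. Agtr1a and Enpep had r = 0.80 and 0.69 over the same sets. Ace ran opposite to both of them, with r of -0.59 and -0.80 for Enpep and -0.67 and -0.70 for Agtr1a. The summed macrophage markers ran opposite to Ace in the same way (r = -0.83 over 9 tumors, -0.86 over 8). The other summed cell type markers also had negative r with Ace over both sets. It was -0.71 and -0.70 for fibroblast, -0.64 and -0.63 for endothelial and -0.24 and -0.23 for adipocyte markers, the weakest. For mural markers it moved from -0.41 over 9 tumors to -0.79 over 8. The part of these cells in the Ace level was not tested. The macrophage markers summed to 501 to 2110 CPM in R-propranolol tumors and 586 to 1535 CPM in vehicle tumors.

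**Figure D3:**
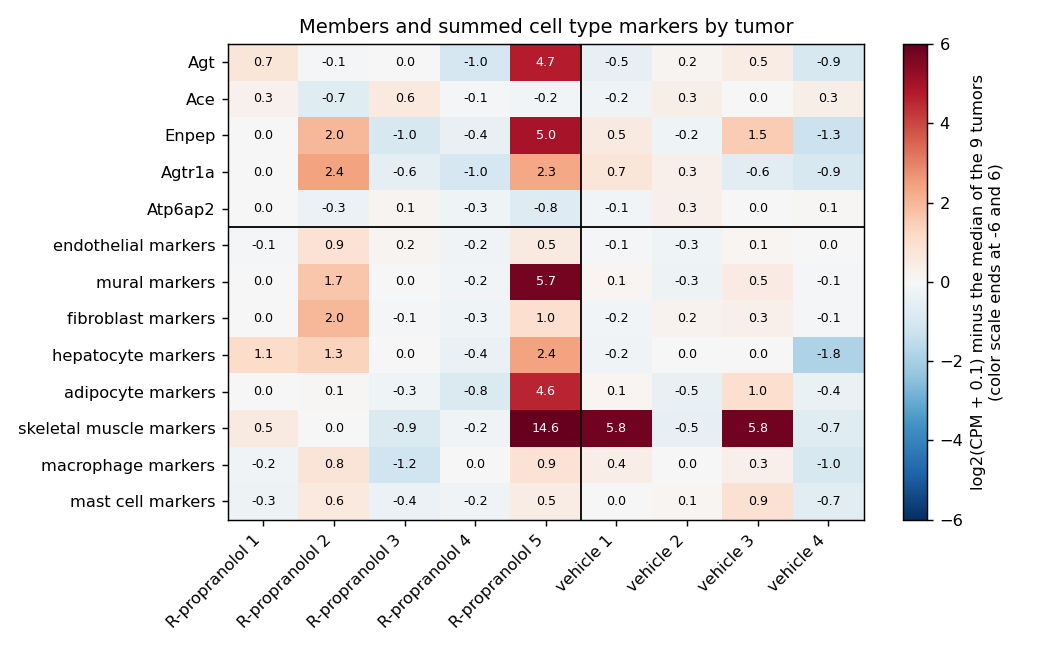
Heat map of the 5 tested members (upper rows) and the summed markers of 8 cell types (lower rows) in each tumor, R-propranolol on the left and vehicle on the right, as log2(CPM + 0.1) minus the median of the 9 tumors. In R-propranolol replicate 5, Agt and Enpep are high together with mural, adipocyte and skeletal muscle markers, while Atp6ap2 is at its lowest, 83.9 CPM.

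The gene most like Ace over 9 tumors was Cyb561, which encodes an ascorbate-dependent transmembrane cytochrome, with r = 0.98 over both 9 and 8 tumors. Cyb561 is the nearest tested gene upstream of Ace, at chr11:105933702-105953336 on the minus strand, 14608 bases away, so that the 2 genes point away from each other. It was at 31.0, 20.1, 41.2, 28.9 and 27.3 CPM in R-propranolol replicates 1 to 5, against 25.7, 36.7, 29.1 and 37.0 CPM in vehicle replicates 1 to 4. As for Ace, R-propranolol replicates 3 and 2 were the highest and the lowest, and the groups overlapped. The ratio of Ace to Cyb561 in CPM was 6.66 to 8.52 in R-propranolol tumors and 7.45 to 7.55 in vehicle tumors. On the other side, Dcaf7, 46907 bases away, had r = 0.50 with Ace over 9 tumors and 0.74 over 8. Of the 10 nearest tested genes on either side of the 5 members, chosen after the values were seen, Cyb561 was the only one to rank first among the 13900 other genes by its r with the member. The next best rank was 581, for 1810030O07Rik beside Atp6ap2.

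The other genes most like Ace over 9 tumors were Slc27a1, a fatty acid transporter (r = 0.97), and Mrgprf, an orphan receptor (r = 0.95). Over the 8 tumors they were Slc6a2, the noradrenaline transporter (r = 0.99), Ndrg3 (0.99) and Neo1, a netrin receptor (0.99). Slc6a2 was at 64.4, 24.4, 91.3, 45.4 and 9.84 CPM in R-propranolol replicates 1 to 5, against 44.7, 76.2, 54.0 and 78.7 CPM in vehicle replicates 1 to 4. Its order followed that of Ace except in R-propranolol replicate 5, where it was at its lowest, and its r with Ace over 9 tumors was 0.70.

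The gene most like Atp6ap2 was Atp6ap1, the other accessory subunit of the V-ATPase, with r = 0.98 over 9 tumors and 0.97 over 8. Atp6ap1 was at 278, 241, 309, 255 and 216 CPM in R-propranolol replicates 1 to 5, against 259, 313, 284 and 303 CPM in vehicle replicates 1 to 4. Both genes were lowest in R-propranolol replicates 5, 2 and 4. The ratio of Atp6ap2 to Atp6ap1 was 0.388 to 0.525 in R-propranolol tumors and 0.504 to 0.578 in vehicle tumors. Next over 9 tumors were Ccdc132 and Brox, both of membrane traffic (r = 0.97 each). Over 8 tumors Stxbp6 (0.96) and Glmp, a lysosomal membrane protein (0.96), came next, of which Stxbp6 had r = -0.21 over 9.

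**Figure D4:**
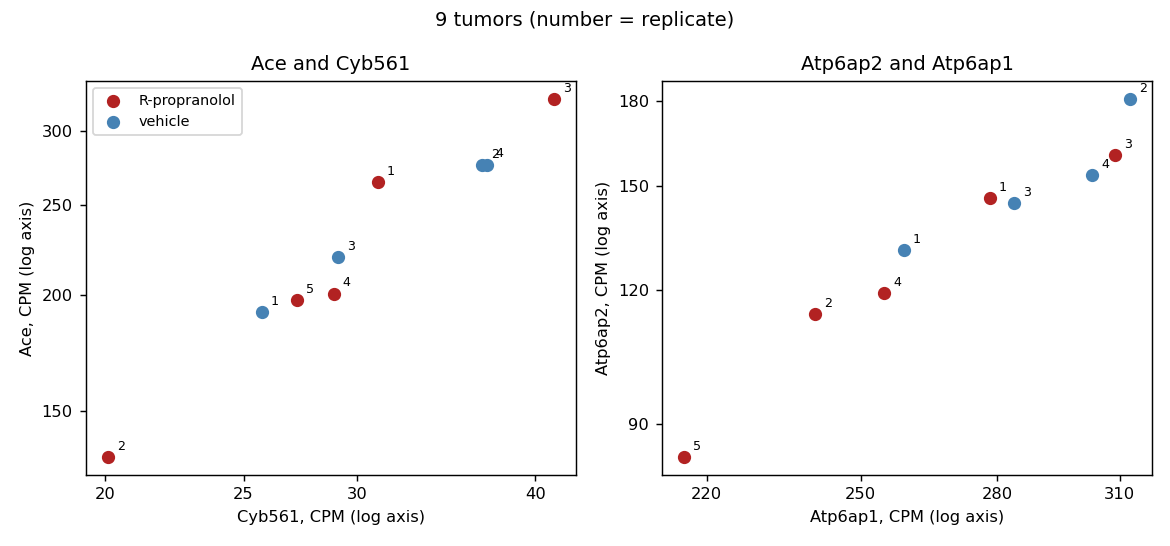
Level of Ace against Cyb561 (left) and of Atp6ap2 against Atp6ap1 (right) in the 9 tumors, in CPM on log axes, with replicate numbers beside the points; red marks R-propranolol and blue marks vehicle. Both pairs follow 1 line across the groups, with r = 0.98 each.

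Among the less abundant members, Agt was most like Tor1aip1, H2-K1 and Fam212b over 9 tumors (r = 0.98 each), and like Fbxo9 (0.93), Gm14379 (0.92) and Fgf17 (0.91) over 8. Fgf17 had r = -0.70 with Agt over 9. Enpep was most like Rnf130, Clmn and Dmkn over 9 tumors (r = 0.99 each), which had r of 0.97 to 0.98 with it over 8. Over 8 tumors it was most like 3110062M04Rik (0.99), Tmsb4x, which encodes thymosin beta 4 (0.99), and Cpxm1 (0.98). Agtr1a was most like Slc36a1, a lysosomal amino acid transporter (0.99 over 9 tumors, 0.98 over 8), and Scamp4 (0.98 over 9, 0.97 over 8). Aspn, which encodes the matrix protein asporin, came next over 9 tumors (0.97) and the noncoding RNA Meg3 over 8 (0.96). Slc36a1 was at 30.1 to 43.4 CPM in R-propranolol tumors and 31.4 to 37.4 CPM in vehicle tumors, so that it nearly followed Agtr1a in order but over a much narrower range.

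The other genes of the system were taken from lists. Of 18 angiotensin peptidases, 14 were tested, and 0 passed an adjusted p of 0.05 or an unadjusted p of 0.05 in either direction. Their log2 fold changes were positive for 8 and negative for 6, with a median of 0.01 against 0.03 over all genes. Without R-propranolol replicate 5, 6 were positive and 8 negative. The renin genes Ren1 and Ren2 had 0 reads in all 9 tumors. As these 2 are near-identical copies whose reads the counting may not assign, their values are uncertain. The most abundant peptidase per length was Ctsa, lysosomal cathepsin A, with 560 ± 188 CPM in R-propranolol tumors and 625 ± 77.3 CPM in vehicle tumors (log2 fold change -0.16, SE 0.27). The peptidases with the smallest p were Mme (neprilysin) and Anpep (aminopeptidase N). Mme was at 53.0 CPM in R-propranolol replicate 5 and 0.369 to 2.64 CPM in the other R-propranolol tumors, against 1.42 to 3.33 CPM in vehicle tumors, and its log2 fold change was 2.25 with and -0.51 without replicate 5. Anpep was at 10.5, 70.4, 5.60, 11.3 and 59.0 CPM in R-propranolol replicates 1 to 5, against 15.7, 12.6, 20.2 and 4.03 CPM in vehicle replicates 1 to 4. Its highest tumors, replicates 2 and 5, were also those highest in Enpep and Agtr1a.

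Of 4 other angiotensin receptor genes, Agtrap alone was tested. It encodes a protein that binds the type 1 receptor and promotes its internalization, and was at 29.2, 50.9, 33.3, 32.2 and 59.4 CPM in R-propranolol replicates 1 to 5, against 36.2, 31.7, 35.0 and 34.9 CPM in vehicle replicates 1 to 4. Replicates 2 and 5 were again the highest, and the groups overlapped (log2 fold change 0.25, SE 0.22, edgeR adjusted p = 0.876). Without R-propranolol replicate 5 its log2 fold change was 0.08. Agtr1b, the other type 1 receptor gene of the mouse, had 0 reads in all 9 tumors. Mas1, the receptor of angiotensin 1-7, had 23 reads in R-propranolol replicate 5, 8 in replicate 2 and 0 in the other R-propranolol tumors, against 0, 2, 1 and 0 reads in vehicle replicates 1 to 4.

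Of 15 genes of type 1 receptor signaling, 0 passed either test, and 8 had positive and 7 negative log2 fold changes (median 0.03). Jak2, a kinase that binds the receptor, was the most abundant per length, with 149 ± 39.5 CPM in R-propranolol tumors and 167 ± 29.6 CPM in vehicle tumors. Mtus1, which encodes a protein that interacts with the type 2 receptor, had a log2 fold change of 2.45 (SE 1.12, edgeR adjusted p = 0.876). It was at 144 CPM in R-propranolol replicate 5 and 4.53 to 25.8 CPM in the other R-propranolol tumors, against 4.13 to 9.45 CPM in vehicle tumors, and its log2 fold change without replicate 5 was 0.62. Rgs4, a brake on Gq signaling, had a log2 fold change of 1.30 (SE 0.60, edgeR adjusted p = 0.876) and 1.12 without replicate 5. It was at 2.08, 9.73, 2.26, 1.23 and 6.32 CPM in R-propranolol replicates 1 to 5, against 2.19, 1.46, 1.63 and 1.71 CPM in vehicle replicates 1 to 4. Only replicates 2 and 5 thus lay well above the vehicle tumors.

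Among the 24 V-ATPase genes listed for their link to Atp6ap2, 19 were tested. None passed an adjusted p of 0.05, and an unadjusted p under 0.05 was reached by 1 higher and 1 lower gene, against 2.3% of all genes tested. Their median log2 fold change was -0.09, with 8 positive and 11 negative, and 0.00 without R-propranolol replicate 5, with 10 positive and 9 negative. Atp6v1g1 was the most abundant per length, at 164 ± 17.6 CPM in R-propranolol tumors and 167 ± 11.1 CPM in vehicle tumors. Atp6v0e, a subunit of the membrane sector, was at 101, 96.6, 106, 97.3 and 78.6 CPM in R-propranolol replicates 1 to 5, against 105, 114, 126 and 119 CPM in vehicle replicates 1 to 4. Of the R-propranolol tumors, replicate 3 alone exceeded the lowest vehicle tumor (log2 fold change -0.27, SE 0.11, edgeR adjusted p = 0.876). Its paralog Atp6v0e2 was at 42.9 CPM in R-propranolol replicate 5 and 0.035 to 3.12 CPM in the other R-propranolol tumors, against 0.047 to 0.617 CPM in vehicle tumors (log2 fold change 5.32, SE 1.98, adjusted p = 0.876 in edgeR; 2.24 without replicate 5). The r with Atp6ap2 over 9 tumors was above 0.5 for 10 of the 19 genes, against 5186 of the 13900 other tested genes. It was 0.94 for Atp6v0b and 0.92 for Atp6v1a but -0.74 for Atp6v0a1. Over 8 tumors these were 0.89, 0.79 and -0.42, while Tcirg1 had 0.67 over 9 tumors and -0.80 over 8, and Atp6v0a4 had 0.74 over 9 and -0.21 over 8. The median r with Atp6ap2 over 9 tumors was 0.62 for the listed genes and 0.03 for all others.

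Of 5 genes of aldosterone synthesis and response, 3 were tested, and 0 passed an adjusted p of 0.05. Cyp11b1 and Cyp11b2, the adrenal enzymes of the last steps of steroid synthesis, had 0 reads in all 9 tumors. Sgk1, a kinase induced by aldosterone and by glucocorticoids and the most abundant of the list per length, was at 68.7, 89.4, 77.9, 65.4 and 90.2 CPM in R-propranolol replicates 1 to 5, against 60.5, 57.6, 59.7 and 63.2 CPM in vehicle replicates 1 to 4. All 5 R-propranolol tumors were above all 4 vehicle tumors, as 1.26% of all genes tested were without overlap in either direction. Its log2 fold change was 0.38 (SE 0.12), or 0.32 without R-propranolol replicate 5, and its adjusted p in edgeR was 0.876 (unadjusted 0.011). Nr3c2, the mineralocorticoid receptor, was at 13.6 CPM in R-propranolol replicate 5 and 0.108 to 0.921 CPM in the other R-propranolol tumors, against 0.237 to 0.559 CPM in vehicle tumors.

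In the kinin system, whose peptides Ace also degrades, 4 of 5 genes were tested and 0 passed either test. Bdkrb1, the B1 kinin receptor, was the most abundant per length, at 8.79 ± 3.71 CPM in R-propranolol tumors and 10.9 ± 1.79 CPM in vehicle tumors. Kng1 and Kng2 encode the kininogens, are close copies of each other, and so are uncertain. Kng1 was at 3.67, 1.16, 0.539, 0.410 and 1.26 CPM in R-propranolol replicates 1 to 5, against 0.694 CPM in vehicle replicate 2 and 0 reads in the other 3 vehicle tumors (log2 fold change 2.95, SE 1.33, edgeR adjusted p = 0.876). Kng2 had a log2 fold change of 1.59 (SE 0.96, edgeR adjusted p = 0.876). Liver is the known source of kininogens, and the hepatocyte markers given beside Agt had positive log2 fold changes for 9 of 9 tested genes, with a median of 2.17, or 2.12 without R-propranolol replicate 5. None of the 9 passed an adjusted p of 0.05 in edgeR. An unadjusted p under 0.05 was reached by 4 of them, all higher with R-propranolol, against 2.3% of all genes tested. The part of hepatocytes in the Kng1 level was not tested.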

How the data were processed

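RNA of 9 bEnd.3 tumors, 5 from R-propranolol-treated and 4 from vehicle-treated mice, was made into NEBNext Ultra libraries and sequenced as paired reads. Per the submitters' processing notes, the authors used STAR, the mm10 build and HTSeq, and the deposited values are whole counts per gene without normalization. Versions, annotation and strand setting were not given in the sources used here. Reads outside genes (13.4% to 15.4%), ambiguous reads and reads not uniquely aligned were left out of library sizes. Those not uniquely aligned were 7.86% in R-propranolol replicate 5 and 3.46% to 3.99% in the other tumors. The TMM factor was 0.753 in R-propranolol replicate 5 and 0.966 to 1.10 in the others.

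Counts were filtered by filterByExpr (minimum count 10, minimum total 15), scaled by TMM with library sizes over the genes kept, and tested by edgeR 4.0.16 in R 4.3.3 (quasi-likelihood, group alone, Benjamini-Hochberg adjustment over 13901 genes). The labels do not say which mouse each tumor came from, so p-values measure the spread between these tumors. Log2 CPM for permutation and correlation used a prior count of 0.25. Places and exon lengths are from GENCODE M21 on GRCm38, and promoters from RefSeq (GRCm38.p6). The test was checked on simulated counts. These were drawn for each gene on its own and held no tumor set apart like R-propranolol replicate 5, so the check does not cover that case. DESeq2 1.42.0, limma 3.58.1, other scalings and filters, leave-one-out fits, a sum of vehicle replicates 1 and 2, and a replicate block were alternatives. The counts of gene lists without R-propranolol replicate 5 were chosen after seeing the data.

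Members and lists were chosen with earlier results of these data known. Named besides the 6 members are, from each list, the most abundant gene per length and up to 2 with the smallest p, and the 3 genes most like each tested member over 9 and over 8 tumors. Other names (neighbours, absent genes, markers, genes of the pump with high or low r) were picked after their values were seen. A result for a listed peptidase is not reported here.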

Additional observations from a re-analysis of the deposited data

Results flagged for a closer look

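In the R-propranolol group, replicate 5 lay far from the other 4 tumors for Agt, at 34.0 CPM where the next highest was 2.01 CPM, and for Enpep, at 50.5 CPM where the next highest was 6.32 CPM. The gap, taken on CPM and not on log2 CPM, exceeded Dixon's 95% critical value in these 2 of the 10 member-by-group sets examined. For normally distributed values, chance gives such a gap in about 1 in 20 groups. That rate need not hold for skewed CPM, and the gap on the log2 scale was not examined. Both gaps come from the same tumor.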

How the results depend on the processing

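The 5 tested members kept an adjusted p above 0.05 in each of 17 alternatives (lowest 0.660), except that DESeq2 gave Agt no p, and Agt and Atp6ap2 kept their sign in all. With limma-voom quality weights the sign turned for Ace (0.018), Agtr1a (-0.18) and Enpep (-0.23); without R-propranolol replicate 2 it turned for Ace (0.037). Leaving out 1 tumor at a time gave log2 fold changes of -0.25 to 0.04 for Ace, 0.12 to 3.20 for Agt, 0.88 to 1.81 for Agtr1a, -0.39 to -0.18 for Atp6ap2 and 0.16 to 3.13 for Enpep. The cause was not tested. Replicate numbers did not pair the tumors (r of deviations -0.28, 0.09, -0.64 and 0.53). A replicate block gave -0.12 for Ace, 0.09 for Agt, 0.37 for Agtr1a, -0.18 for Atp6ap2 and 0.03 for Enpep. No vehicle tumor shares the number of R-propranolol replicate 5, so that tumor adds nothing to the group difference in this fit. Library size alone moved the median over all genes to -0.10, and Ace to -0.22 and Atp6ap2 to -0.39. Over all genes, the count past an unadjusted p of 0.05 (320) was 626 without a filter, 656 with DESeq2, 838 with quality weights, 100 with vehicle replicates 1 and 2 summed, and 103 to 737 with 1 tumor left out. With 2-fold as well (212), it was 545 without a filter, 128 with a filter of 1 CPM in 4 tumors, 424 with DESeq2, 91 with quality weights, 48 summed, 57 with the replicate block and 36 to 549 with 1 tumor left out. DESeq2 passed 2 genes at an adjusted p of 0.05. Depth limits Agtr1a, at 9 to 135 reads a tumor, and Agtr2.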
